A study of Mus musculus with 9 samples.

Results

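The genes described here are 10 feedback target genes of the Ras-MAPK pathway, Dusp4, Dusp6, Spry1, Spry2, Spry4, Spred1, Spred2, Etv4, Etv5 and Phlda1, which were chosen by symbol among the 21899 genes of the deposited table. All 10 were in the table, and all 10 passed the filter on low values, as did 15827 genes in all. The study made 9 libraries of poly(A) RNA from cultured stem cells of a mouse brain tumor, BTSC in the labels. The control group held 3 libraries of BTSC. The sgRNA1 KO and sgRNA2 KO groups held 3 libraries each of BTSC in which Gpd1, the gene of the cytosolic glycerol-3-phosphate dehydrogenase, had been cut by CRISPR-Cas9 with 1 of 2 guide RNAs. Per the labels, the knockout (KO) cells carried the lentiCRISPR v2 vector by transfection, were selected with puromycin and were expanded from colonies of single cells, so that a KO library is 1 clone. The labels say neither whether the controls were picked as colonies nor whether they passed through puromycin. They do not say either that the libraries of a group came from separate cultures, so the p-values measure only the spread between these libraries.

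Growth factor receptors switch on Ras, which starts a chain of kinases from Raf through MEK to ERK. Active ERK raises the transcription of genes whose products damp the same chain, and the level of these transcripts is widely read as a measure of ERK output. Dusp6 and Dusp4 are phosphatases that take phosphate off ERK and related kinases, the Sprouty and Spred proteins act upstream on Ras and Raf, Etv4 and Etv5 are ETS-family transcription factors downstream of receptor signaling, and Phlda1 is a pleckstrin homology-like domain protein counted among the transcripts that follow pathway output. In gliomas the pathway is often driven by EGFR or PDGFRA, and the same transcripts are abundant in neural and glial precursors.

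Dusp6 was the member that passed the test in KO against control, and Spred1 was the member with the mean closest to the control level on the log2 scale and the only one with a positive fold change. Their promoters are shown because these genes had the largest and the smallest log2 fold change. Both run from 250 bases before to 50 bases after the RefSeq start site, in GRCm38.p6, which is mm10. The Spred1 window ends at 117121120, before the GENCODE M21 start of the gene at 117121374. The Dusp6 window holds the GENCODE start, 99263231, so the windows lie differently against those gene models. Capitals mark GGAA, the core that ETS-family factors bind, or TTCC, the same core on the other strand.
Dusp6, chr10:99262981-99263280, plus strand: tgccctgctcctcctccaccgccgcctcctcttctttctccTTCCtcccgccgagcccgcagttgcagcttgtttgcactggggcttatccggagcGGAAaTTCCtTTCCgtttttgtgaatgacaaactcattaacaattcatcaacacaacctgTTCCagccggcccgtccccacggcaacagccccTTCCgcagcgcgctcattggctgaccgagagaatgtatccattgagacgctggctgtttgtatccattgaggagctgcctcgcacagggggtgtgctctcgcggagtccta
Spred1, chr2:117120821-117121120, plus strand: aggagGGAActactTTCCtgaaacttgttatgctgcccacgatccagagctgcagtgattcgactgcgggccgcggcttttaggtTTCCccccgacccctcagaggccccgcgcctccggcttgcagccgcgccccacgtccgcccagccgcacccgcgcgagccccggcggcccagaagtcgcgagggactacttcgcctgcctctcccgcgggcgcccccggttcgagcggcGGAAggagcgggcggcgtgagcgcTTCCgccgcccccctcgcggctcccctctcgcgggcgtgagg
The Dusp6 window held 6 matches to GGAA on either strand and the Spred1 window 5, and 96% of the 32851 mouse promoters of the same length held at least 1. Neither window held the longer ETS motif CCGGAA, which contains GGAA and was found in 14.9% of all promoters, or the AP-1 motif TGANTCA, found in 7.81%. These matches are letters in the window and not measured binding. Promoter sequences were matched for 6 of the 10 members.

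The deposited values are normalized read counts, and their totals lay between 39781901 and 42975283 per library. Gpd1, the targeted gene, stood at 25106, 26566 and 25836 in control replicates 1 to 3, at 3299, 1347 and 21351 in sgRNA1 KO, and at 10812, 10812 and 6945 in sgRNA2 KO. It did not pass in KO against control (log2 fold change -1.99, SE 0.72, limma adjusted p = 0.0516) or with sgRNA2 (-1.47, limma adjusted p = 0.203), and passed with sgRNA1 (-2.50, limma adjusted p = 0.0391). Library sgRNA1 KO replicate 3 kept 82.6% of the control mean, and across all genes this library and sgRNA2 KO replicate 1 were the KO libraries most like the controls. Of the 10 stem cell markers, Sox2, Olig2, Nes, Vim and Fabp7 were each at 7105 or more in every control, while Prom1 did not exceed 15 there. The summed stem cell markers ran from 344845 to 387719 in control and from 227282 to 336491 in KO, with 3 of 10 lower and 1 higher. Nes lay at 37297 to 46053 in control and at 8451 to 24740 in KO. Sox2 went the other way, at 7105 to 8756 in control and 11565 to 23374 in KO. Gfap, at 3348 to 4827 in control, ran from 373 to 23509 in KO. Pericyte and fibroblast markers, 1 of 2 tested lower, summed to 97 to 113 in control and 20 to 40 in KO. Of these, Rgs5 was at 54 to 75 in control and 1 to 5 in KO. Microglial markers summed to at most 64 in any library. Endothelial markers, 1 of 3 tested lower in KO, summed to 143 to 191 in control and 45 to 205 in KO. Oligodendrocyte markers, 1 of 3 tested lower in KO, summed to 264 to 452 in control and 374 to 6211 in KO. The 6 astrocyte markers summed to 97001 to 104508 in control and 121968 to 268815 in KO, with 2 of 6 higher in KO, and the neuron markers, 5 of 6 in the table and 1 of 4 tested higher, to 42747 to 44048 and 47435 to 125607. Map2 made up nearly all of the neuron sum, at 42431 to 43613 in control and 46736 to 123669 in KO, while Snap25 and Syt1 did not exceed 45 in any library. The part of these shifts in the results was not tested, and fewer cells of a type cannot be told apart from less RNA per cell.

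In control cells the level per kilobase of exon, the scale on which genes can be compared, was highest for Dusp6 at 4799 ± 1099 (SD, n = 3) and Spry2 at 4249 ± 240, whose libraries overlapped. Etv5 followed at 3106 ± 147. Spred1 at 1740 ± 120, Spry1 at 1668 ± 184 and Etv4 at 1426 ± 44.7 came next, and each overlapped its neighbour in this order. Spry4 at 1073 ± 211 and Spred2 at 877 ± 36.9 also overlapped, and Phlda1 at 568 ± 6.42 and Dusp4 at 293 ± 65.6 were the least abundant. Control replicate 1 had the lowest level of the 3 controls for 9 of the 10 members, the exception being Etv4, against 39.9% of all genes tested. Its Dusp6 was 65.5% of the mean of the other controls, its Dusp4 66.2% and its Spry4 69.7%.

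Setting all 6 KO libraries against the 3 controls asked how Gpd1 targeting with either guide went with feedback transcript levels. The ERK phosphatase Dusp6 fell and no member rose. In limma, 1 of the 10 members passed an adjusted p of 0.05, against 39.3% of all genes tested (20.2% of them lower and 19.1% higher), a smaller share than in the table as a whole. At an unadjusted p under 0.05, 2 members passed, against 50.2% of all genes. Log2 fold changes were negative for 9 of 10 members, against 50.8% of all genes tested, with a median of -0.40 against -0.01 over all genes tested. The spread between KO clones was wide. The median SD of the members on the log2 scale was 0.77 over the 6 KO libraries, against 0.36 for all genes tested, and 0.09 in control for both sets.

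**Figure D1:**
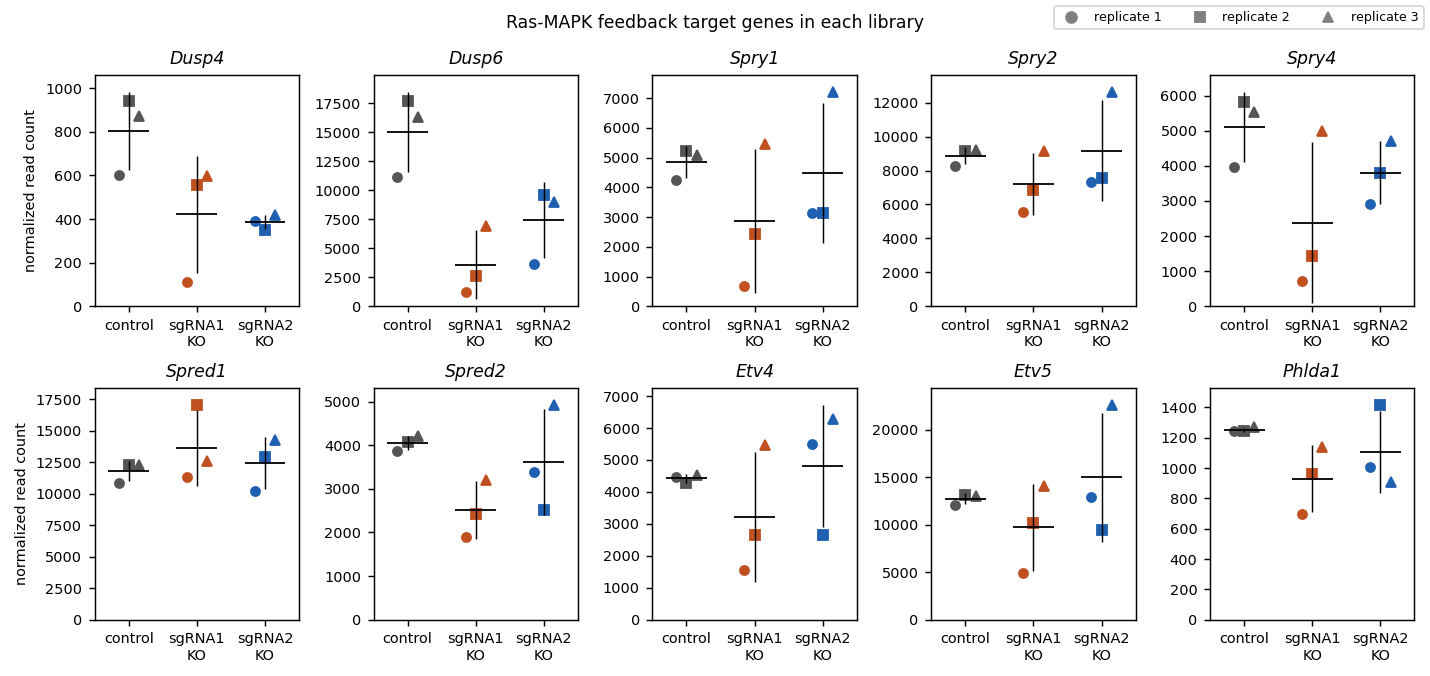
Normalized read count of each of the 10 genes in control, sgRNA1 KO and sgRNA2 KO; a point is a library, its shape the replicate, a horizontal bar the mean and a vertical bar the SD (n = 3), and axes start at 0. Dusp6 lay between 1221 and 9610 in KO, under all 3 controls (11128 to 17640), whereas Spred1 in KO, at 10218 to 17028, overlapped its controls.

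Dusp6, the cytoplasmic phosphatase of ERK (ENSMUSG00000019960, chromosome 10, 99263231 to 99267489, plus strand, mm10), had normalized read counts of 11128, 17640 and 16322 in the controls. It stood at 1221, 2611 and 6900 in sgRNA1 KO replicates 1 to 3 and at 3636, 9610 and 8945 in sgRNA2 KO replicates 1 to 3. All 6 KO libraries lay below all 3 controls, as they did for 23.8% of all genes tested (all 6 lay above for 21.1%), and the lowest, sgRNA1 KO replicate 1, held 8.12% of the control mean. The log2 fold change was -1.76 (SE 0.60, 95% interval -3.10 to -0.41), with an adjusted p of 0.0423 in limma, a 3.38-fold fall. The call was lost when any control was left out (limma adjusted p = 0.0751, 0.138 and 0.125 without control replicates 1, 2 and 3), without sgRNA1 KO replicate 2 (0.0726), without sgRNA2 KO replicate 1 (0.0628), and without both KO libraries most like the controls (0.0602). The log2 fold change then ranged from -1.96 to -1.61.

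Dusp4, a nuclear phosphatase of the same family (ENSMUSG00000031530, chromosome 8, 34807297 to 34819894), had 600, 939 and 873 in control. It stood at 112, 558 and 596 in sgRNA1 KO and at 390, 351 and 418 in sgRNA2 KO. The groups did not overlap, but the highest KO library, at 596, came within 4 of control replicate 1 at 600. At a log2 fold change of -1.13 (SE 0.46), it did not pass (limma adjusted p = 0.0756). Without sgRNA1 KO replicate 1, the lowest library, it passed at -0.80 (limma adjusted p = 0.0271).

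The Sprouty genes, whose products inhibit signaling between receptors and Raf, gave no call. Spry4 had 3956, 5825 and 5532 in control, 714, 1444 and 4994 with sgRNA1 and 2913, 3792 and 4702 with sgRNA2. Its 2 lowest values were those of sgRNA1 KO replicates 1 and 2, at 14% and 28.3% of the control mean, while replicate 3 of that guide, at 97.8%, and sgRNA2 KO replicate 3, at 92.1%, lay within the control range. On average KO differed from control by -0.99 on the log2 scale (SE 0.57, limma adjusted p = 0.189).

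Spry1 (ENSMUSG00000037211, chromosome 3, 37639947 to 37644598) had 4233, 5214 and 5093 in control, 675, 2446 and 5468 with sgRNA1 and 3128, 3126 and 7213 with sgRNA2. In KO, 4 libraries lay below all controls and 2, sgRNA1 KO replicate 3 and sgRNA2 KO replicate 3, above all controls, so that the highest KO value was 10.7 times the lowest. Its log2 fold change of -0.72 (95% interval -2.07 to 0.63) did not pass (limma adjusted p = 0.363). Exons of Spry1 overlap those of Gm42922, a gene with a mean of 11.2 over the 9 libraries, on the opposite strand over 710 bases, and whether the counting used strand is not given in the sources used here. Spry2 (ENSMUSG00000022114, chromosome 14, 105891947 to 105896819) varied less. It had 8289, 9129 and 9184 in control, 5568, 6864 and 9164 with sgRNA1 and 7347, 7546 and 12639 with sgRNA2, where replicate 3 was the highest of the 9 libraries. Its log2 fold change was -0.16 (95% interval -0.65 to 0.32, limma adjusted p = 0.573).

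The Spred genes encode membrane-bound partners of neurofibromin, the Ras-inactivating product of Nf1. Spred1 (ENSMUSG00000027351, chromosome 2, 117121374 to 117182279) had 10869, 12308 and 12237 in control, 11282, 17028 and 12558 with sgRNA1 and 10218, 12865 and 14289 with sgRNA2. The groups overlapped, and sgRNA1 KO replicate 1, the lowest library for every other member, held 95.6% of the control mean. In limma the log2 fold change was 0.13 (95% interval -0.21 to 0.47, limma adjusted p = 0.529). Spred2 (ENSMUSG00000045671, chromosome 11, 19924375 to 20024026) had 3871, 4074 and 4210 in control, 1889, 2422 and 3211 with sgRNA1 and 3391, 2514 and 4924 with sgRNA2. All KO libraries but sgRNA2 KO replicate 3 lay below the controls, and that library lay above them. Its log2 fold change of -0.47 (SE 0.25, limma adjusted p = 0.160) did not pass, and leaving out sgRNA2 KO replicate 3 moved it to -0.62, which did (limma adjusted p = 0.0237).

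The ETS factor genes went both ways among the clones. Etv4 (ENSMUSG00000017724, chromosome 11, 101769742 to 101785371) had 4472, 4269 and 4534 in control, 1548, 2643 and 5484 with sgRNA1 and 5495, 2642 and 6281 with sgRNA2. Of its KO libraries, 3 lay below all controls and 3 above all controls, and none between them. Etv5 (ENSMUSG00000013089, chromosome 16, 22381309 to 22439719) had 12051, 13146 and 13034 in control, 4911, 10197 and 14043 with sgRNA1 and 12942, 9429 and 22593 with sgRNA2. Its highest library, sgRNA2 KO replicate 3, was at 177% of the control mean, and its lowest, sgRNA1 KO replicate 1, at 38.5%. Log2 fold changes were -0.31 for Etv4 (SE 0.41, limma adjusted p = 0.570) and -0.19 for Etv5 (SE 0.38, adjusted p = 0.707), and that of Etv5 turned to 0.05 without sgRNA1 KO replicate 1.

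Phlda1 (ENSMUSG00000020205, chromosome 10, 111506286 to 111508645) had 1243, 1244 and 1268 in control, 695, 959 and 1137 with sgRNA1 and 1005, 1416 and 906 with sgRNA2. The controls were nearly equal, and all KO libraries but sgRNA2 KO replicate 2, which was the highest of the 9, lay below them. Its log2 fold change of -0.33 (SE 0.19) did not pass (limma adjusted p = 0.197). Its exons overlap those of Gm28592 on the opposite strand over 727 bases. As the strand setting is not given, whether antisense reads entered its count cannot be told.

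The same clones were low for most members. The library sgRNA1 KO replicate 1 had the lowest value of the 9 libraries for 9 of the 10 members, against 17.6% of all genes tested, and its median log2 ratio of members to the control mean was -1.44, against -0.0037 over all genes tested. In sgRNA1 KO replicate 2, 9 members lay below all controls, against 46.3% of all genes tested, with a median of -0.62. In sgRNA2 KO replicates 1 and 2, 8 members lay below all controls in each (44% and 45.9% of all genes) and 1 and 2 above them (40.8% and 44.8%), with medians of -0.29 and -0.53. In the other clones the median over the members, though not every member, stood at or over the control level. In sgRNA1 KO replicate 3 the median was 0.02, with 4 members below and 4 above all controls (44.6% and 41% of all genes). In sgRNA2 KO replicate 3 the median was 0.28, with 3 members below all controls (44.7% of all genes), 6 above them (44.1% of all genes), and the highest value of the 9 libraries for 5 members (19.6% of all genes).

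**Figure D2:**
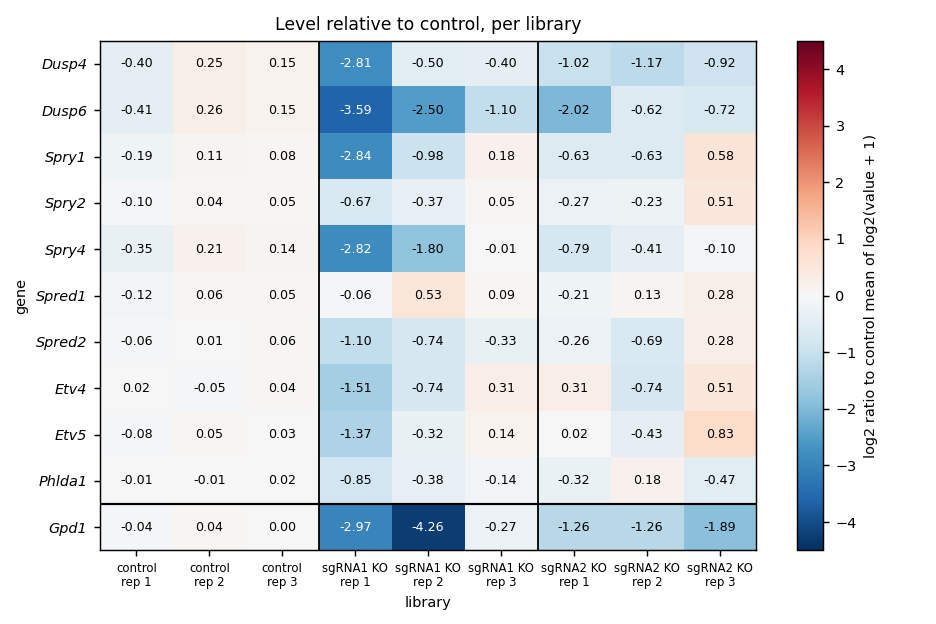
Log2 ratio of each gene to its control mean, on the log2(value + 1) scale, with genes as rows and the 9 libraries as columns; blue is below and red above control, the color scale is symmetric, and the bottom row is Gpd1. The column of sgRNA1 KO replicate 1 reaches -3.59 for Dusp6 and stands at -0.06 for Spred1, and the column of sgRNA2 KO replicate 3 runs, Gpd1 aside, from -0.92 for Dusp4 to 0.83 for Etv5.

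Within clones the members parted. In sgRNA2 KO replicate 3, Dusp4 and Dusp6 held 52% and 59.5% of their control means while Spry1 was at 149%, Spry2 at 143%, Etv4 at 142% and Etv5 at 177%. In sgRNA2 KO replicate 1, Dusp6 was at 24.2% and Etv4 at 124%. In sgRNA1 KO replicates 1 to 3, Gpd1 was at 12.8%, 5.21% and 82.6% of its control mean, beside Dusp6 at 8.12%, 17.4% and 45.9%. In sgRNA2 KO replicates 1 to 3, Gpd1 was at 41.8%, 41.8% and 26.9%, beside Dusp6 at 24.2%, 63.9% and 59.5%. Both genes were thus lowest in sgRNA1 KO replicates 1 and 2, and a relation between them was not tested.

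The guides were then taken apart, and the comparisons of each guide share the same 3 controls. With sgRNA1, Dusp6 fell by 2.39 on the log2 scale (SE 0.59, limma adjusted p = 0.0179, lower in 3 of 3 libraries), and the other members did not pass, against 36% of all genes tested (18.9% lower and 17.1% higher). At an unadjusted p under 0.05, 3 members passed, against 48.7% of all genes. All 3 libraries lay below all controls for Dusp4, Dusp6, Spred2 and Phlda1, as for 32% of all genes. The values nearest to a call were those of Spred2 (log2 fold change -0.73, limma adjusted p = 0.0541) and Spry4 (-1.54, adjusted p = 0.0662). The Dusp6 call was lost without control replicates 2 or 3 or without sgRNA1 KO replicates 1 or 2 (limma adjusted p from 0.0576 to 0.0695, log2 fold changes from -2.34 to -1.80). Without sgRNA2 KO replicate 2 or 3, Spred2 passed as well. Without sgRNA1 KO replicate 3, the clone that kept most Gpd1, 7 members passed as lower, Dusp4, Dusp6, Spry1, Spry4, Spred2, Etv4 and Phlda1, where 49.9% of all genes passed. Spry4 then stood at -2.31 (limma adjusted p = 0.001) and Dusp6 at -3.04 (adjusted p = 0.00135).

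With sgRNA2, no member passed in limma, against 22.1% of all genes tested, and none had an unadjusted p under 0.05, against 39.2% of all genes. All 3 libraries lay below all controls for Dusp4 (log2 fold change -1.03, SE 0.56, limma adjusted p = 0.200) and Dusp6 (-1.12, SE 0.59, adjusted p = 0.192), as for 28.3% of all genes. Without sgRNA1 KO replicate 1, which shares the estimate of spread, Dusp4 passed (limma adjusted p = 0.0151). The medians of the members were -0.69 with sgRNA1 and -0.21 with sgRNA2, against -0.01 and -0.02 over all genes tested.

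The difference between the guides was itself tested, and no member passed, nor did any of the 15827 genes (0% called; 2.99% of genes and 0 members had an unadjusted p under 0.05 in limma). The level with sgRNA2 was higher than with sgRNA1 for 9 of 10 members on the log2 scale, while 48.7% of all genes tested were lower with sgRNA2. The members were read in the same libraries, so their signs are not independent. For Dusp6 the difference was 1.28 (95% interval -0.07 to 2.62, limma adjusted p = 0.778), and for Spry4 1.11 (95% interval -0.21 to 2.43, adjusted p = 0.778). Without sgRNA1 KO replicate 3, the Spry4 difference was 1.88 and passed (limma adjusted p = 0.0473). Both intervals include 0 and neither shows that the guides act alike.

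**Figure D3:**
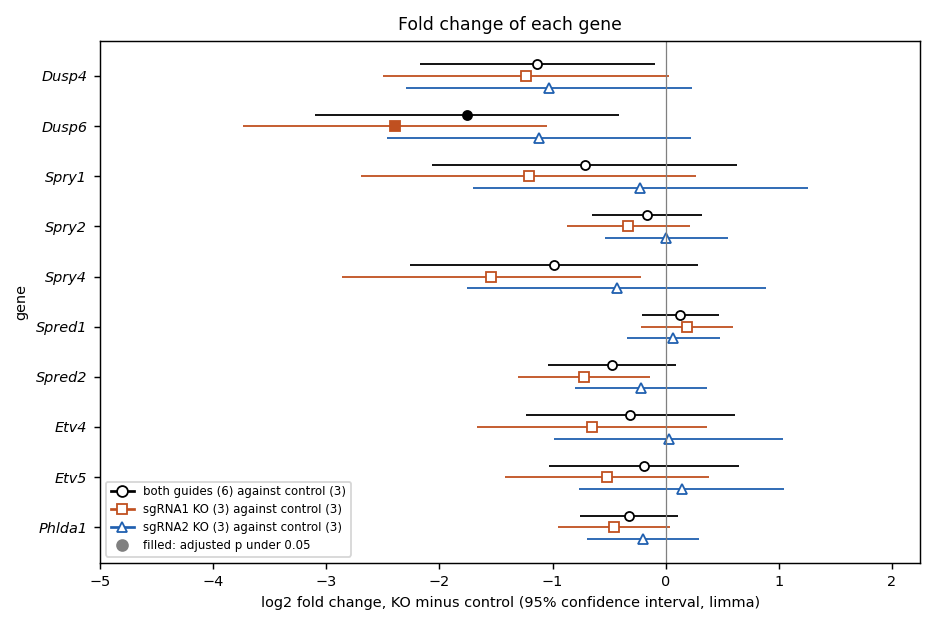
Log2 fold change of each gene with its 95% confidence interval from limma, for KO (6 libraries), sgRNA1 KO (3) and sgRNA2 KO (3), each minus control (3); filled symbols passed an adjusted p of 0.05. Only the Dusp6 symbols for KO (-1.76) and sgRNA1 KO (-2.39) are filled.

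The other genes of the pathway were followed from ligand to target, with KO against control as the comparison and 19.1% of all genes higher and 20.2% lower. Their lists were chosen by role, with earlier results of these data known. Ligand genes mostly fell where they passed, with 5 of 13 tested lower and 2 higher. Pdgfa, a ligand of the PDGF receptors, fell from 896 ± 126 (SD, n = 3) to 412 ± 98.6 (SD, n = 6), and Hbegf, a ligand of EGFR, from 2526 ± 539 to 1107 ± 425. Pdgfd rose, from at most 2 in any control to between 27 and 150 in KO. Receptor genes had 6 of 14 higher and 3 lower. Pdgfra, the PDGF receptor alpha gene, rose from 490 ± 107 to 2792 ± 1861 (log2 fold change 2.20, SE 0.57, limma adjusted p = 0.0147), with 4251, 5154 and 921 with sgRNA1 and 1390, 3933 and 1105 with sgRNA2. Erbb4, of the EGFR family, rose from 1197 ± 126 to 7359 ± 5584. Met, the receptor of hepatocyte growth factor, fell from 276, 378 and 411 in control to between 14 and 20 in every KO library (log2 fold change -4.30, SE 0.21, limma adjusted p = 2.55e-05).

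Between receptor and kinases, adaptor and exchange factor genes had 6 of 11 higher and 0 lower, with Gab1, a docking protein, going from 4213 ± 222 to 8016 ± 2083 (log2 fold change 0.89, SE 0.20, limma adjusted p = 0.00914). Ras genes and their GTPase activators had 3 of 13 higher and 4 lower. Mras, a Ras-related protein that works with Shoc2, rose from 866 ± 87.6 to 2240 ± 900. The kinase and scaffold list had 2 of 16 higher and 4 lower. Mapk3, which encodes ERK1, rose from 3848, 3501 and 3680 in control to between 5595 and 6667 in KO (log2 fold change 0.76, SE 0.09, limma adjusted p = 0.000712).

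Other feedback regulators were higher more often than lower. Of 13 tested, 6 were higher and 2 lower, with a median log2 fold change of 0.36. The list was set by role, and whether each of its genes, Dusp8, Dusp10 and Dusp16 among them, follows ERK was not tested. Il17rd, whose product Sef restrains signaling from FGF receptors, rose from 1371, 1166 and 1214 in control to 4955, 5214 and 2124 with sgRNA1 and 2754, 5319 and 2749 with sgRNA2 (log2 fold change 1.53, SE 0.31, limma adjusted p = 0.00534). Spry3, a low-abundance Sprouty gene, rose from 24.3 ± 4.51 to 109 ± 36.1. The phosphatase genes of the list went both ways, with Dusp8 higher at a log2 fold change of 1.86 (limma adjusted p = 0.0177) and Dusp2 lower at -1.14 (limma adjusted p = 0.0432). Dusp2 was low, at 15, 27 and 20 in control and 5 to 17 in KO, so the groups overlapped. Its call was lost in 7 of 9 fits with 1 library left out (limma adjusted p up to 0.172). That of Dusp8 was lost when any 1 control was left out (up to 0.0683).

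Other ERK target genes, with immediate early genes among them, were mostly lower where they passed. Of 16 tested, 8 were lower and 1 higher, with a median log2 fold change of -0.97. Ccnd1, the cyclin D1 gene, had 49394, 70271 and 66375 in control, 2178, 5044 and 17091 with sgRNA1 and 13600, 4881 and 8032 with sgRNA2. All KO libraries lay below the controls, at a log2 fold change of -3.17 (SE 0.56, limma adjusted p = 0.00333). Epha2, an ephrin receptor gene, fell from 301 ± 78.8 to 27.3 ± 16.7, and its relative Epha4 rose from 3842 ± 160 to 8506 ± 2665. Plaur, the urokinase receptor gene, had 34, 53 and 46 in control and at most 3 in any KO library.

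**Figure D4:**
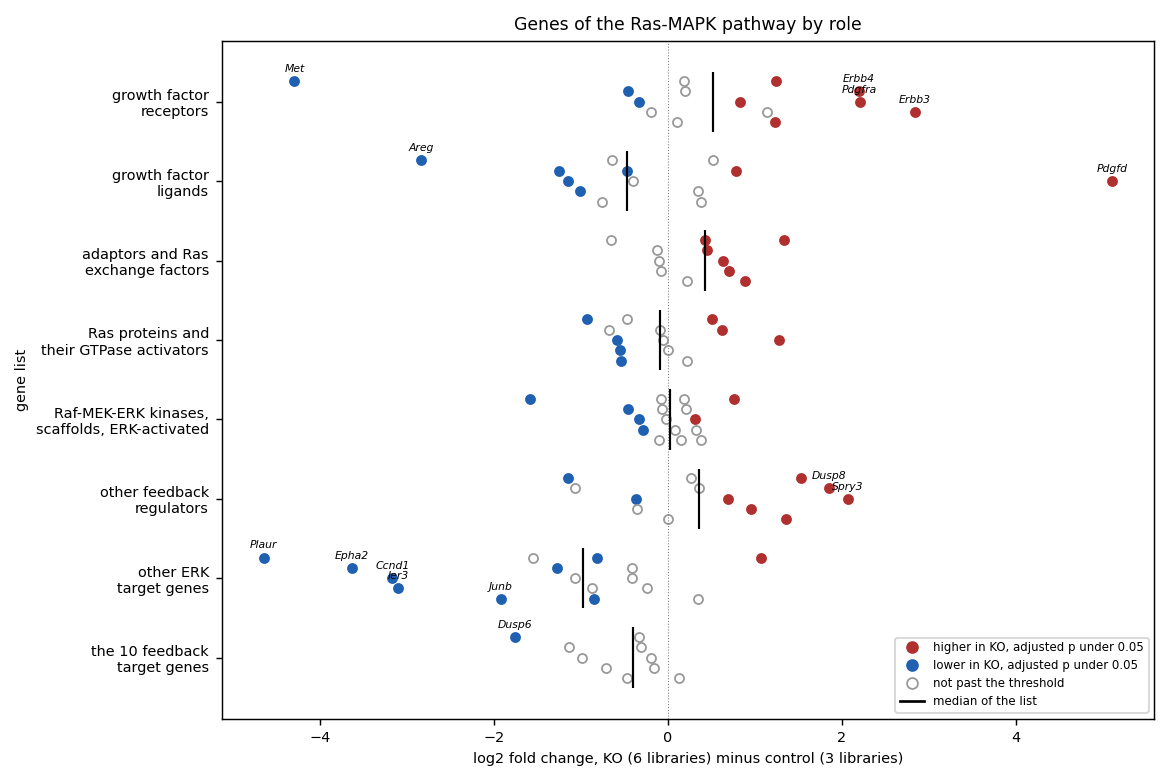
Log2 fold change of every tested gene of 7 pathway lists and of the 10 feedback target genes, KO (6 libraries) minus control (3); red and blue points passed an adjusted p of 0.05, open points did not, and black bars are list medians. The bar of the other ERK target genes stands at -0.97, that of the 10 genes at -0.40 and that of the other feedback regulators at 0.36.

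Of 34 pathway genes chosen by the rule for naming, 14 passed whichever library was left out, among them Met, Pdgfd, Pdgfa, Gab1, Mras, Mapk3, Il17rd, Spry3, Ccnd1, Epha2 and Plaur. The rule takes the largest changes past the threshold, so this share does not speak for the whole lists. Pdgfra, Hbegf and Epha4 were lost without control replicate 2 or 3 (adjusted p up to 0.0638 in limma), and Erbb4 without any control or sgRNA2 KO replicate 2 (up to 0.0866). With 1 control left out, between 2 and 4 receptor genes, 3 adaptor genes and 4 or 5 other feedback regulators were higher, and 5 other ERK targets lower. Calls over all genes fell as well, from 39.3% to 24.7%, 17.5% and 19% without control replicates 1, 2 and 3. Quantile normalization, with which 37.8% of all genes passed, changed the split of higher and lower calls to 4 and 1 for the kinase list. It gave 4 and 3 for the Ras list and 7 and 1 for other feedback regulators. Variance weights per group, with which 56% of all genes passed, gave 5 higher and 4 lower for the kinase list and 4 and 6 for the Ras list. They gave 8 and 4 for other feedback regulators and 2 and 11 for other ERK targets. With the replicate block (36.6% of all genes) the kinase list had 1 higher and 1 lower, and the ligand list 2 and 3. Without both KO libraries most like the controls (48.3% of all genes), 6 receptor genes, 5 adaptor genes and 6 other feedback regulators were higher and 7 other ERK targets lower.

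The genes whose log2 values over the 9 libraries were most like those of Dusp6 by Pearson's correlation, members aside, were Nrd1 (r = 0.936), Trib1 (0.936) and Col5a3 (0.919), which share libraries and scaling with it. Of the members, Spry4 was closest at 0.940, and Spred1 was farthest at -0.05. Trib1 is itself on the list of other ERK targets and had 2375, 2664 and 2736 in control, 694, 1216 and 2222 with sgRNA1 and 1273, 1461 and 2221 with sgRNA2, while Nrd1 had 7509 to 8642 in KO against 8412 to 8850 in control.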

How the data were processed

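The tools named in the submitters' processing notes are DESeq2, featureCounts and STAR (2.4.1d), and the build is mm10. The annotation release, the roles and the strand setting are not given in the sources used here. For every gene the authors deposited a score in each library, which is a normalized read count in whole numbers. That the authors scaled counts by 1 factor per library and rounded them was inferred from the values. Raw counts were not used here, so no count test was run.

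Values were taken as log2(value + 1), which understates changes of low genes, and genes were kept where their 9-library mean reached 10, which left 15827 that were tested together. Two-sided tests came from limma 3.58.1 in R 4.3.3, with a trend of variance on mean level, and the threshold was an adjusted p of 0.05 (Benjamini-Hochberg, over all genes tested). KO against control used a fit with 2 groups, and comparisons of single guides a fit with 3 groups. The pipeline was tested on simulated data. Libraries of a group differed by more than sampling noise. Positions and exon lengths came from GENCODE M21 (mm10), and promoters from RefSeq. The members and lists were chosen with earlier results of these data known. From each list, up to 3 genes with the largest rise and 3 with the largest fall past the threshold could be named, and the 3 genes most like Dusp6. Values of some pathway genes are not reported here. Figures were made with matplotlib 3.10.9 in Python 3.11.15.

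Alternatives were other pseudocounts (0.5 and 5), filters (none, and a mean of at least 50), scalings, variance weights, fits of only the 6 libraries compared, each library left out, and a replicate block. Leaving out both KO libraries most like the controls, and running the alternatives on the pathway genes, were added after the data were seen.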

Additional observations from a re-analysis of the deposited data

How the results depend on the processing

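Of 750 alternative values of the members' fold changes, 701 kept direction and side of the threshold, 26 came to pass, 10 ceased to pass and 13 changed sign. The count of members called was 1 in KO against control (39.3% of all genes tested) and in sgRNA1 KO against control (36%). It was 0 with sgRNA2 (22.1%) and between guides (0%). Other pseudocounts, filters and scalings left each count as it was. Variance weights per group gave 4 in KO against control (adding Dusp4, Spred2 and Phlda1), where 56% of all genes passed. In sgRNA1 KO against control they gave 3 (adding Spry4 and Spred2), where 44.1% of all genes passed. Deviations from the group means were correlated at -0.35 to 0.33 over 9 pairs of same-numbered libraries, and at -0.52 to 0.52 between different numbers. With 3 libraries per group, whether the replicate numbers pair the libraries cannot be told from this. Each KO library is 1 clone, and the titles of the KO libraries carry other numbers than the replicate numbers. Titles and source names thus give no pairing, and the replicate block only assumes one. With the replicate block, 2 members were called in KO against control (36.6% of all genes) and 3 in sgRNA1 KO against control (33.1%). With only the 6 libraries compared, 2 were called with sgRNA1 (42.4% of all genes) and 1 with sgRNA2 (30.7%). Leaving out 1 library at a time gave 0 to 2 in KO against control (17.5% to 48% of all genes) and 0 to 7 with sgRNA1 (8.01% to 49.9%). It gave 0 to 1 with sgRNA2 (4.06% to 34.6%) and 0 to 1 between guides (0% to 1.15%). Leaving out both KO libraries most like the controls gave 0 in KO against control (48.3% of all genes) and 5 with sgRNA1 (51.6%).

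None of the values that changed sign passed in limma. In KO against control, Etv5 ranged from -0.39 to 0.048 over the libraries left out, and was positive without sgRNA1 KO replicate 1. With sgRNA2, Spry2 ranged from -0.25 to 0.14 and was negative without control replicate 1 or sgRNA2 KO replicate 3. Spred1 ranged from -0.040 to 0.20 and Etv5 from -0.21 to 0.43, both negative without sgRNA2 KO replicate 3. Etv4 ranged from -0.22 to 0.41 and was negative without control replicate 2, sgRNA2 KO replicate 1 or sgRNA2 KO replicate 3, and at -0.12 without both near-control libraries. Spred2 ranged from -0.47 to 0.013 and was positive without sgRNA2 KO replicate 2. Between guides, Dusp4 ranged from -0.58 to 0.62, negative without sgRNA1 KO replicate 1, and Spred1 from -0.25 to 0.052, positive without sgRNA1 KO replicate 2 or sgRNA2 KO replicate 1. The cause was not tested. The 6227 genes called in KO against control became 2777 to 3904 without 1 control. The 5699 with sgRNA1 became 1267 to 2811 without 1 control, 1952 without sgRNA1 KO replicate 1 and 2348 without replicate 2, and the 3505 with sgRNA2 became 643 to 1320 without 1 control and 1431 without sgRNA2 KO replicate 2. Between guides 182 genes were called without sgRNA1 KO replicate 3.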

Other observations

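Control replicate 1 stood below the other controls for other ERK target genes as well as for the members. It was the lowest control for 12 of the 16 on that list, against 39.9% of all genes tested, with a median log2 difference from the other controls of -0.22, against -0.01 over all genes tested and -0.16 over the members. Epha2 in that library was 60.7% of the mean of the other controls, Ier3 63.8%, Ccnd1 72.3%, Jun 73.7% and Myc 78.7%, while Fos, at 114%, and Epha4, at 107%, were above it. These genes were chosen after their values were seen, and the controls are too few to test 1 against the others.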
